A study of Mus musculus with 9 samples.

Results

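The 42 genes described here encode glucose and lactate transporters, the enzymes of glycolysis, the regulator Hif1a, the pyruvate dehydrogenase step, the pentose phosphate pathway and the TCA cycle with its cytosolic partners. They were taken as a list of gene names and matched through their Ensembl identifiers, and all 42 were present among the 32976 genes counted, of which 28645 carried a name. The list held 4 transporters (Slc2a1, Slc2a3, Slc16a1, Slc16a3), 17 glycolysis enzymes, Hif1a, 4 genes of the pyruvate dehydrogenase step, 4 of the pentose phosphate pathway and 12 of the TCA cycle. Transporters and glycolysis enzymes, 21 genes together, are called glycolysis below.

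The study sorted CD8+ CD44+ tumor-infiltrating T cells that recognize GSW11, a subdominant epitope of the CT26 tumor, by the intensity of their staining with a GSW11 tetramer, which was used as a measure of T cell receptor avidity. All mice were wildtype BALB/c animals bearing subcutaneous CT26.WT colorectal tumors and all were given anti-PD-1 (clone RMP1-14) on days 3, 6 and 9 after implantation, so that no group was untreated. TetHighProg (libraries 1, 2 and 5) held high avidity cells from progressing tumors, TetLowProg (9, 10 and 12) low avidity cells from progressing tumors, and TetLowReg (6, 7 and 8) low avidity cells from regressing tumors, with 3 libraries in each group. Bulk RNA was amplified for 22 PCR cycles by Smart-seq2 without molecular identifiers, and p-values measure the spread between these libraries, which may be technical. Per the methods, the high and low avidity cells of progressing tumors were sorted from the same set of tumors. The labels do not say which TetHighProg and TetLowProg libraries shared a tumor, so the groups were compared as independent.

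Glycolysis converts glucose to pyruvate and, through lactate dehydrogenase, to lactate, and effector T cells are known for a high use of it. The TCA cycle oxidizes the acetyl-CoA that pyruvate dehydrogenase makes from pyruvate and feeds electrons to respiration, while the pentose phosphate pathway branches from glycolysis to supply NADPH and ribose. Hif1a is the oxygen-regulated subunit of a transcription factor that is known to drive glycolytic genes and Pdk1, a kinase that inhibits pyruvate dehydrogenase.

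ACGTG is a form of the core of the hypoxia response element to which Hif1a binds, and the other form, GCGTG, was not searched. The promoters of the 4 members with the most counts among those found in 6 or more libraries are shown for their content of ACGTG. Each run covers 250 bases before and 50 bases after the annotated start, on the strand of the gene, from the GRCm39 reference of another mouse strain, C57BL/6J. Capitals mark ACGTG on the strand shown and CACGT, its reverse complement; in CACGTG the 2 overlap. Aldoa lies at chr7:126398377-126398676 on the minus strand, Ldha at chr7:46495013-46495312, Eno1 at chr4:150320893-150321192 and Mdh2 at chr5:135807042-135807341, all 3 on the plus strand.
Aldoa: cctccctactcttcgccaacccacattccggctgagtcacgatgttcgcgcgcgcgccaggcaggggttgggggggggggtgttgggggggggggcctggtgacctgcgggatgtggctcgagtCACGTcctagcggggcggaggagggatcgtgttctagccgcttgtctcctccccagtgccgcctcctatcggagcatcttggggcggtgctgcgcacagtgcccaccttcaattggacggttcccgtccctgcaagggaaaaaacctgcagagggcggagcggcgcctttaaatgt
Ldha: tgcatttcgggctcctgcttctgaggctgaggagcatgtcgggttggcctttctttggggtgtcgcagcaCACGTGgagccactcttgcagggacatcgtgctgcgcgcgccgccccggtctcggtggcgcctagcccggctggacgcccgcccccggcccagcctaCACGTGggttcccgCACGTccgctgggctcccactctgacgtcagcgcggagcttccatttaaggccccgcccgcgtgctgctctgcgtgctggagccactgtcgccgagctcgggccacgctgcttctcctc
Eno1: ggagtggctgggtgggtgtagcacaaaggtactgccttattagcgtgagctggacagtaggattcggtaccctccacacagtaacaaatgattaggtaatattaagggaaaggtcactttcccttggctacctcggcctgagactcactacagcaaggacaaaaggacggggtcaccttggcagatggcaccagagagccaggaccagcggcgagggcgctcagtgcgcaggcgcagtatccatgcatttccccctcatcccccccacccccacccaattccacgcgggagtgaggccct
Mdh2: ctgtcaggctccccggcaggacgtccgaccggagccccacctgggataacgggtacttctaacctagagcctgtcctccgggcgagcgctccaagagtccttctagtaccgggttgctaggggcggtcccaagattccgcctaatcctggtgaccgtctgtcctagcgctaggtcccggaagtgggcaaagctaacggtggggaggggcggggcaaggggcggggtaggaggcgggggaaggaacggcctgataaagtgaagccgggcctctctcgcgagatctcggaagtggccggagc
The Aldoa promoter held 1 match to ACGTG and the Ldha promoter 5, counted on both strands, whereas the Eno1 and Mdh2 windows held none. The Eno1 window does hold GCGTG, which was not counted. Across the list 17 of 42 promoters (40.5%) held a match, compared with 4508 of 21770 protein-coding promoters (20.7%). By role, a match was present in 9 of 17 glycolysis enzymes (52.9%), 2 of 4 transporters and Hif1a itself. It was present in 1 of 4 genes of the pyruvate dehydrogenase step, 4 of 12 TCA cycle genes (33.3%) and 0 of 4 pentose phosphate genes. These matches describe letters in a window and not bound sites.

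The libraries differed far more in how many genes they held than in depth. Total gene counts ranged from 16405306 to 36429515, but the number of genes with 10 or more counts, called found below, ranged from 599 to 8071. In 4 libraries, TetHighProg 1 and 2, TetLowReg 6 and TetLowProg 10, 599 to 1298 genes were found, so each group held 1 or more of them and TetHighProg held a pair. Of 12 CD8 T cell markers 4 to 12 were found per library, and Cd8a or Cd8b1 was found in all 9, although Cd44, by which the cells were gated, had 0 counts in TetHighProg 1 and 2, TetLowReg 6 and TetLowProg 10. B cell markers were found for 0 of 5 genes in each TetHighProg library (0 to 0.0395 CPM, counts per 1000000 gene counts), 0 to 5 in TetLowReg (0 to 960 CPM) and 0 to 5 in TetLowProg (0 to 1526.3 CPM). Macrophage and dendritic cell markers were found for 0 to 1 of 10 genes in TetHighProg (0 to 1543.2 CPM), 0 to 4 in TetLowReg (0.227 to 8528.3 CPM) and 0 to 2 in TetLowProg (0 to 621 CPM), led by Lyz2, while C1qa had 0 counts in all 9 libraries. In the B cell list Cd79a and Ighm had 0 counts in all 3 TetHighProg libraries, and of the macrophage and dendritic cell list every gene but Lyz2 had 0 there. Erythroid markers were found for 0 of 5 genes in TetHighProg (0 CPM), 0 to 3 in TetLowReg (0.0454 to 33.4 CPM) and 0 to 3 in TetLowProg (0 to 69.6 CPM). Cd4 and Foxp3, which mark CD4 and regulatory T cells, were both found in TetLowReg 7 and 8 (up to 58.8 CPM for the pair) and in no library of the other groups. The 12 CD8 T cell markers summed to 5964 to 11484 CPM in TetHighProg, 2337 to 10010 in TetLowReg and 4683 to 8418 in TetLowProg. In TetLowReg 7 and 8 the sums were 2337 and 2804 CPM. Tumor and stroma markers were found for 0 to 2 of 9 genes in TetHighProg (0.395 to 387 CPM). The numbers were 0 to 4 in TetLowReg (0.181 to 36.5 CPM) and 0 to 2 in TetLowProg (0.318 to 92.1 CPM). Col1a2, a fibroblast collagen, had 12437 counts in TetHighProg 1 and 1906 in TetHighProg 5, where the collagens Col1a1 and Col3a1 had 0. Since the libraries are bulk, fewer cells of a type and less RNA per cell cannot be told apart, and the part of these markers in the results below was not tested.

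More of the metabolic genes were found in the low avidity groups than in TetHighProg, but the libraries of the groups overlapped widely. In TetHighProg 9, 1 and 15 of the 42 genes were found, in TetLowReg 3, 28 and 28, and in TetLowProg 36, 6 and 28. The means were 8.33 ± 7.02 (SD, n = 3), 19.7 ± 14.4 and 23.3 ± 15.5, respectively. TetLowReg exceeded TetHighProg by 11.3 genes, TetLowProg exceeded TetHighProg by 15 and TetLowProg exceeded TetLowReg by 3.67, beside pooled SDs of 11.4, 12.1 and 15.0. The first was 19.7 without TetLowReg 6 and 7.17 without TetLowReg 7 or 8, and the second was 8.67 without TetLowProg 9 and 23.7 without TetLowProg 10. The last turned negative without TetLowReg 6 (-4.67) and without TetLowProg 9 (-2.67), and was 12.3 without TetLowProg 10, 7.83 without TetLowReg 7 or 8 and 1.33 without TetLowProg 12. The number found followed the breadth of the library. Of the 5813 genes that entered the tests 46.4% were found in TetHighProg 5. In TetLowReg 7 and 8 and TetLowProg 9 and 12 the share was 81.2% to 89.5%, and in the 4 sparse libraries 9.67% to 20.7%. Of the 32 members that entered the tests the shares were 46.9%, 75% to 96.9% and 3.1% to 25%, in the same order. In TetLowReg 7 and 8 and TetLowProg 12, which each held 28 of the 42 genes, 4 or 5 of 5 B cell markers were found, and in TetLowProg 9, which held 36, 1 of 5 was (Ighm).

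**Figure D1:**
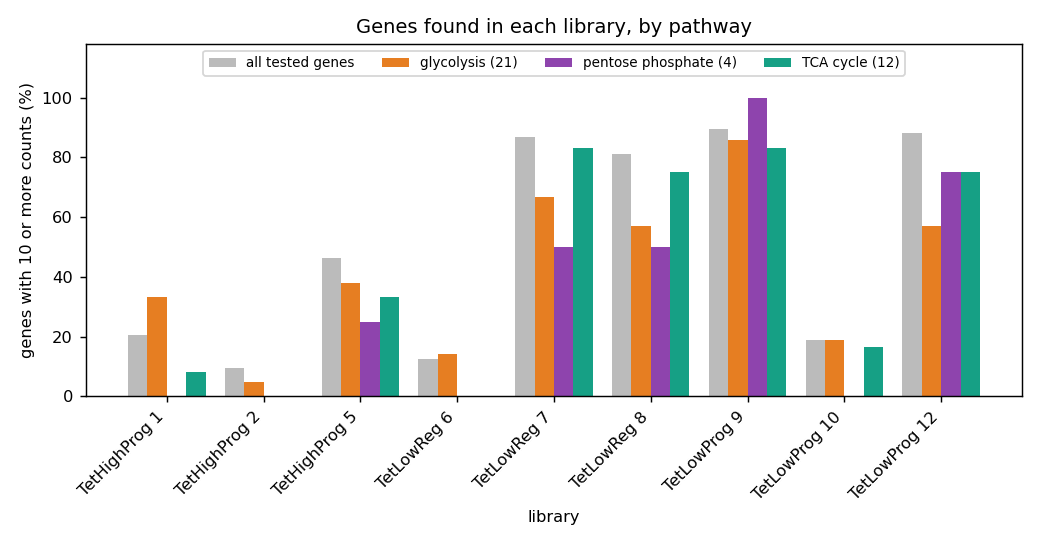
Percentage of genes with 10 or more counts in each of the 9 libraries (x axis), for all 5813 tested genes and for the 21 glycolysis, 4 pentose phosphate and 12 TCA cycle genes. In the 4 sparse libraries 0 of 4 pentose phosphate genes were found, beside 9.67% to 20.7% of all tested genes, and in TetLowProg 9 all 4 were. The tested genes passed a filter on low counts, which G6pdx did not.

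By pathway, glycolysis genes were found in each library, with 7, 1 and 8 of 21 in TetHighProg, 3, 14 and 12 in TetLowReg and 18, 4 and 12 in TetLowProg. TCA cycle genes numbered 1, 0 and 4 of 12 in TetHighProg, 0, 10 and 9 in TetLowReg and 10, 2 and 9 in TetLowProg. Pentose phosphate genes numbered 0, 0 and 1 of 4 in TetHighProg, 0, 2 and 2 in TetLowReg and 4, 0 and 3 in TetLowProg. Of the 42 genes 39 were found in some library, 15 in 5 or more and 0 in all 9, and Aldoc had 0 counts throughout. TetLowProg 9 was the broadest, with 36 of the 42 found and the highest count of 24 of them.

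Counted by step, an unbroken chain from hexokinase to pyruvate kinase, with 1 or more enzymes found at each of the 10 steps, was present in TetLowProg 9 alone. TetLowProg 12 held 9 of the 10 steps and lacked Tpi1, triosephosphate isomerase, which was counted in no library but TetLowProg 9. TetLowReg 7 and 8 held 7 and 8 steps, TetHighProg 5 held 6, and the 4 sparse libraries held 1 to 4.

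**Figure D2:**
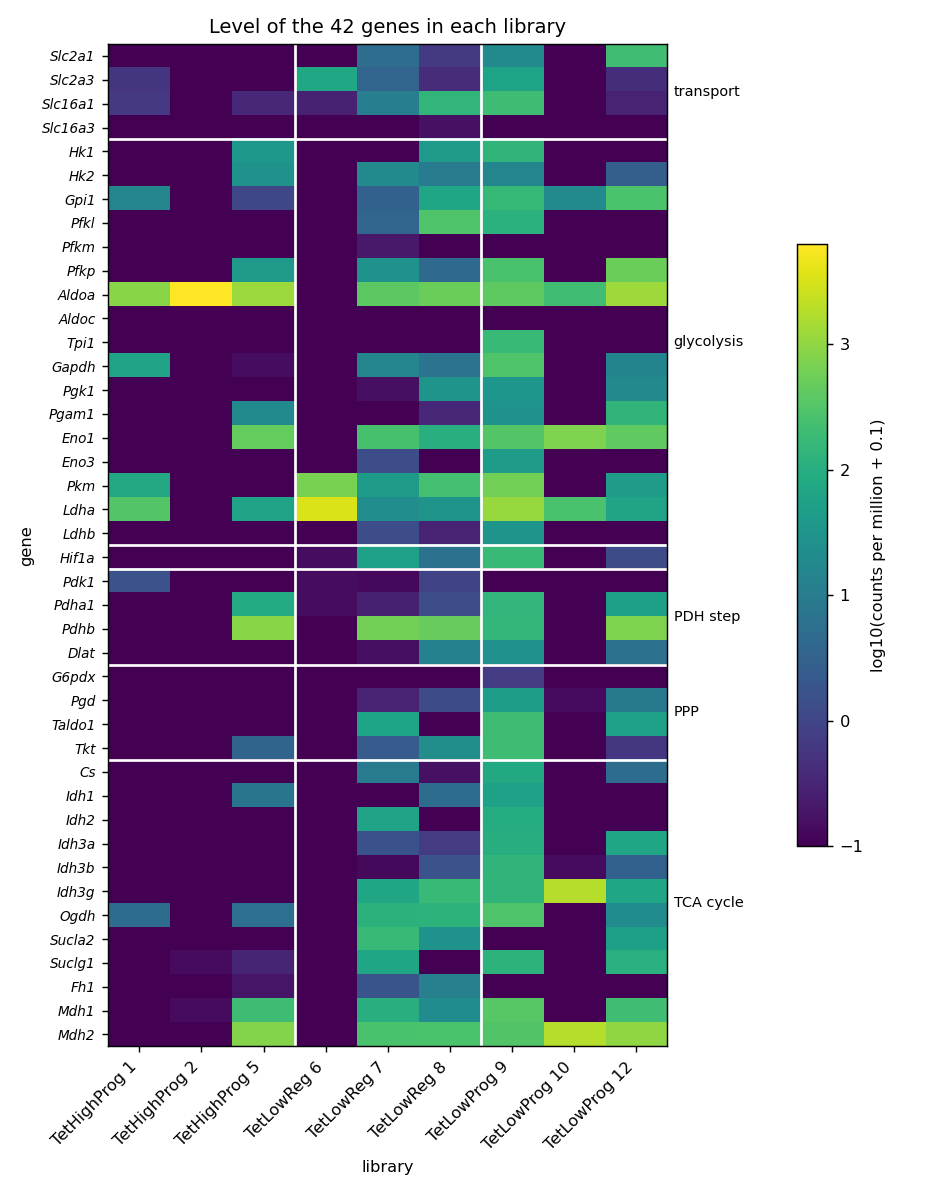
Level of each of the 42 genes (rows, ordered by role) in each of the 9 libraries (columns), as log10 of CPM plus 0.1. Aldoa and Ldha are each found in 8 of the 9 libraries, while most of the 42 genes are dark in the 4 sparse libraries.

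Glucose and lactate transporters had between 0 and 18 counts in each TetHighProg library. Slc2a1, the glucose transporter that activated T cells are known to induce, had 0, 0 and 0 counts in TetHighProg 1, 2 and 5, 0, 184 and 9 in TetLowReg 6, 7 and 8, and 668, 0 and 6720 in TetLowProg 9, 10 and 12, an order of libraries that is kept below. Slc2a3, a glucose transporter of high affinity, had 15, 0 and 0 counts in TetHighProg, 1682, 128 and 5 in TetLowReg and 2157, 0 and 10 in TetLowProg. Both were at 0 in TetLowProg 10, so their groups overlapped. Slc16a1, which carries lactate, had 18, 0 and 6 counts in TetHighProg, 4, 408 and 2374 in TetLowReg and 7475, 0 and 6 in TetLowProg, with 1 high library in TetLowProg and overlap of all groups. Slc16a3, the lactate exporter of glycolytic cells, had 1 count, in TetLowReg 8.

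The first steps of glycolysis, hexokinase and phosphofructokinase, were counted in few libraries. Hk1 had 0, 0 and 821 counts in TetHighProg, 0, 0 and 607 in TetLowReg and 4887, 0 and 0 in TetLowProg. Hk2, the inducible hexokinase, had 0, 0 and 657 counts in TetHighProg, 0, 699 and 148 in TetLowReg and 565, 0 and 86 in TetLowProg. In CPM TetHighProg 5 lay within the range of the other groups for Hk1 (36.2 CPM) and above every other library for Hk2 (29.0 CPM, with 19.2 in TetLowReg 7 the next). Gpi1, which isomerizes glucose phosphate, had 518, 0 and 22 counts in TetHighProg, 0, 108 and 1059 in TetLowReg and 6010, 498 and 8576 in TetLowProg. In CPM, each TetLowProg library lay above each TetHighProg library, while TetLowReg overlapped both. Near copies at 95% identity or more, a pseudogene among them, match 54.2% of the Gpi1 transcript. Of the subunits of phosphofructokinase, the enzyme that commits glucose to glycolysis, Pfkl had 0, 0 and 0 counts in TetHighProg, 0, 132 and 4991 in TetLowReg and 4133, 0 and 0 in TetLowProg. Pfkp had 0, 0 and 899, then 0, 1000 and 71, then 9521, 0 and 16432 counts in the same order. Pfkm, the muscle form, had 4 counts, all in TetLowReg 7. Exons of another gene, Cfap410, overlap 39.8% of the exons of Pfkl, and those of Iffo1 overlap 41.7% of the exons of Gapdh.

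Aldoa had the most counts of the list in TetHighProg and was the one tested gene of the list lower in TetLowReg without overlap. This aldolase had 28997, 158211 and 27084 counts in TetHighProg, 0, 13785 and 8491 in TetLowReg and 14553, 5374 and 38622 in TetLowProg. Each TetHighProg library was above each TetLowReg library, at 868, 6247.5 and 1193.7 against 0, 378 and 518 CPM, while TetLowProg 12 (1226.1 CPM) overlapped TetHighProg. In TetHighProg 2 Aldoa was the gene of rank 30 in the whole library, and it made up nearly all of the 158213 counts of the list there. Aldoc, the brain form, had none.

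In the lower part of glycolysis Gapdh, the oxidizing step, had 1928, 0 and 1 counts in TetHighProg, 0, 573 and 108 in TetLowReg and 10686, 0 and 453 in TetLowProg. Reads of Gapdh are uncertain, since 88 annotated genes, 77 of them pseudogenes, match 88.2% of its transcript at 95% identity or more. Tpi1 (6585 counts in TetLowProg 9), Pgk1 (up to 1199 counts in the same library) and Pgam1 (up to 4270 in TetLowProg 12) were found in 1, 3 and 3 libraries. Eno1, enolase, had 0, 0 and 10333 counts in TetHighProg, 0, 9265 and 1703 in TetLowReg and 11591, 18882 and 13558 in TetLowProg. It was thus high in each TetLowProg library including the sparse one, and above each TetLowReg library, but in CPM TetHighProg 5 (455) lay within the TetLowProg range (319 to 751). Eno3, the muscle form, was found in TetLowReg 7 (46 counts) and TetLowProg 9 (1604 counts). Reads of Eno1 are uncertain too, because 5 other genes match 75.7% of its transcript.

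Pyruvate kinase and lactate dehydrogenase were highest in a sparse library of regressing tumors or in TetLowProg 9. Pkm had 2606, 0 and 0 counts in TetHighProg, 14626, 1482 and 3785 in TetLowReg and 21552, 0 and 1335 in TetLowProg. Ldha had 11039, 0 and 1338 counts in TetHighProg, 74652, 822 and 505 in TetLowReg and 41876, 6647 and 1982 in TetLowProg. The 74652 counts of Ldha stood in TetLowReg 6, where 3 of the 42 genes were found, and the other TetLowReg libraries were below TetHighProg 5. Ldhb, the heart form, had 0, 0 and 0, then 0, 45 and 3, then 1097, 0 and 0 counts. Pseudogenes match 62.9% of the Ldha and 65.1% of the Pkm transcript.

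**Figure D3:**
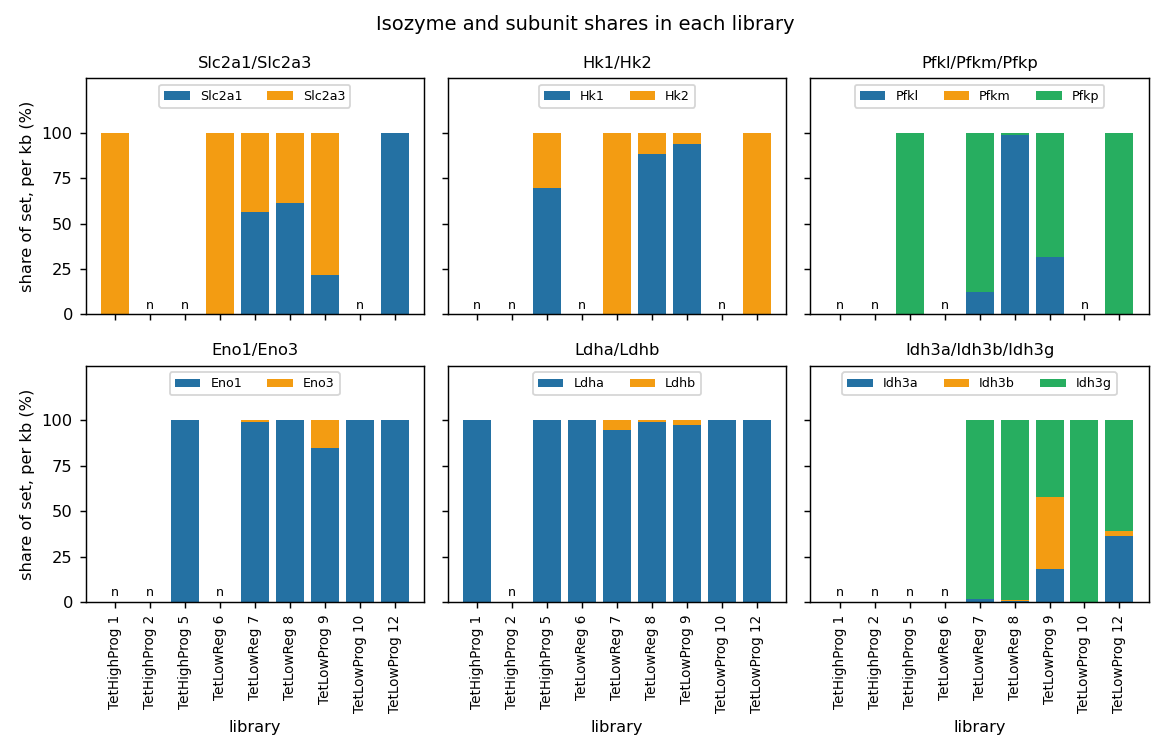
Share of each isozyme or subunit within its set (y axis, percent of counts per kilobase of canonical transcript) in each of the 9 libraries, with n where the set had fewer than 10 counts. Ldha and Eno1 lead in each library shown, while the hexokinase, phosphofructokinase and glucose transporter sets change their leading gene between libraries.

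Ratios within a library do not depend on its total, and per kilobase of canonical transcript they were stable for some sets and not for others. Aldoa led over Aldoc in 8 of 8 libraries with 10 or more counts for the set, Ldha over Ldhb in 8 of 8, Eno1 over Eno3 in 6 of 6 and Slc16a1 over Slc16a3 in 4 of 4. Hk1 led in 3 libraries and Hk2 in 2, Pfkp in 4 and Pfkl in 1, and Slc2a1 and Slc2a3 in 3 each. Within TetLowReg the share of Hk1 moved from 0% in library 7 to 88.2% in library 8, and that of Pfkl from 12.1% to 98.7%. Within TetLowProg Slc2a1 made up 21.6% of its pair in library 9 and 99.8% in library 12. The leading hexokinase, phosphofructokinase or glucose transporter thus changed within a group.

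Hif1a was counted in the low avidity groups and in no TetHighProg library. It had 0, 0 and 0 counts in TetHighProg, 1, 2015 and 105 in TetLowReg and 6325, 0 and 38 in TetLowProg. TetLowReg did not overlap TetHighProg, but in TetLowReg 6 this rests on 1 count. Its target Pdk1 had 53, 0 and 0 counts in TetHighProg, 1, 1 and 14 in TetLowReg and 0, 0 and 0 in TetLowProg, so that it stood below TetLowReg in TetLowProg without overlap, although TetLowReg 6 and 7 held 1 count each. It did not pass the filter of the edgeR fit, and DESeq2 with poscounts size factors (computed from the counts above 0) called it lower (adjusted p = 6.51e-07). Of the pyruvate dehydrogenase subunits, Pdhb had 0, 0 and 20015 counts in TetHighProg, 0, 22065 and 7706 in TetLowReg and 5441, 0 and 23450 in TetLowProg, which put TetHighProg 5 among the highest libraries. Pdha1 had up to 5135 counts, in TetLowProg 9, and was found in 4 libraries, and Dlat, the acetyltransferase subunit, had up to 964 and was found in 3. A pseudogene matches 70.8% of the Pdhb transcript.

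The pentose phosphate pathway was the least counted of the 3 pathways. Its first and rate-limiting enzyme G6pdx had 21 counts, all in TetLowProg 9. Pgd, the next oxidative enzyme, had 0, 0 and 0 counts in TetHighProg, 0, 7 and 20 in TetLowReg and 1722, 1 and 269 in TetLowProg. Each TetLowProg library thus held a count and no TetHighProg library did, although TetLowProg 10 held 1. Tkt, transketolase of the non-oxidative branch, had 0, 0 and 79 counts in TetHighProg, 0, 85 and 386 in TetLowReg and 7234, 0 and 15 in TetLowProg. Taldo1, transaldolase, was found in TetLowReg 7 (2240 counts) and in TetLowProg 9 and 12 (7270 and 1737 counts).

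Entry into the TCA cycle was not counted in TetHighProg. Cs, citrate synthase, had 0, 0 and 0 counts there, 0, 352 and 1 in TetLowReg and 2943, 0 and 156 in TetLowProg. Idh2, the NADP-dependent mitochondrial isocitrate dehydrogenase, was found in TetLowReg 7 (2085 counts) and TetLowProg 9 (3360 counts) and had 0 counts in the other 7 libraries. Idh1, its cytosolic counterpart, was found in 3 libraries, with 164 counts in TetHighProg 5, 80 in TetLowReg 8 and 1991 in TetLowProg 9.

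The 3 subunits of the NAD-dependent isocitrate dehydrogenase had 0 counts in all TetHighProg libraries. Idh3a, the catalytic subunit, had 0, 55 and 10 counts in TetLowReg and 3558, 0 and 2157 in TetLowProg. Idh3b had 0, 1 and 26 counts in TetLowReg and 4942, 1 and 95 in TetLowProg. Idh3g had 0, 2418 and 2976 counts in TetLowReg and 5078, 46708 and 2194 in TetLowProg. TetLowProg was therefore above TetHighProg without overlap for Idh3b and Idh3g, but for Idh3b TetLowProg 10 held 1 count. Idh3g led the set per kilobase in 5 of 5 libraries, from 42.1% in TetLowProg 9 to nearly all counts in TetLowProg 10, where 46708 counts of Idh3g stood beside 0 of Idh3a. Exons of other genes, Srpk3 and Ssr4, overlap 33.7% of the exons of Idh3g, and reads there cannot be assigned without strand.

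Further round the cycle Ogdh, the oxoglutarate dehydrogenase, was counted in all groups, with 165, 0 and 124 counts in TetHighProg, 0, 4487 and 2102 in TetLowReg and 10687, 0 and 645 in TetLowProg. Its TetHighProg counts were below those of the 4 libraries with counts in the other groups. The succinyl-CoA ligase genes Sucla2 and Suclg1 were found in 3 libraries each and in no TetHighProg library, with highest counts of 6280 (TetLowReg 7) and 4665 (TetLowProg 9). Fh1, fumarase, was found in TetLowReg 7 and 8, with 60 and 202 counts. Mdh1, the cytosolic malate dehydrogenase, had 0, 1 and 4532 counts in TetHighProg, 0, 3734 and 340 in TetLowReg and 13046, 0 and 6728 in TetLowProg. Mdh2, the mitochondrial form, had 0, 0 and 18152 counts in TetHighProg, 0, 9747 and 4503 in TetLowReg and 11353, 46734 and 31139 in TetLowProg. Like Eno1, Mdh2 was high in each TetLowProg library and in CPM above each TetLowReg library, with TetHighProg 5 inside the TetLowProg range.

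As a share of all gene counts, glycolysis did not separate the groups, whereas the TCA cycle ranged over several orders of magnitude. Glycolysis took 0.135%, 0.625% and 0.183% of gene counts in TetHighProg, 0.413%, 0.0787% and 0.149% in TetLowReg and 0.405%, 0.125% and 0.294% in TetLowProg. The TCA cycle took 0.000494%, 7.9e-06% and 0.101% in TetHighProg, 0.0871% and 0.0652% in TetLowReg 7 and 8, and 0.170%, 0.372% and 0.154% in TetLowProg. Each TetLowProg library was above each library of the other groups for the TCA cycle, by less than 2-fold over TetHighProg 5 in the case of TetLowProg 9 and 12, and a share gets no test here. Without mitochondrially encoded genes TetLowReg 7 (0.157%) came close to TetLowProg 12 (0.163%). In TetLowReg 6 no TCA cycle count was seen, which allows a share of up to 1.36e-05%. The pentose phosphate pathway took at most 0.0447%, in TetLowProg 9, and had 0 counts in TetHighProg 1 and 2 and TetLowReg 6.

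**Figure D4:**
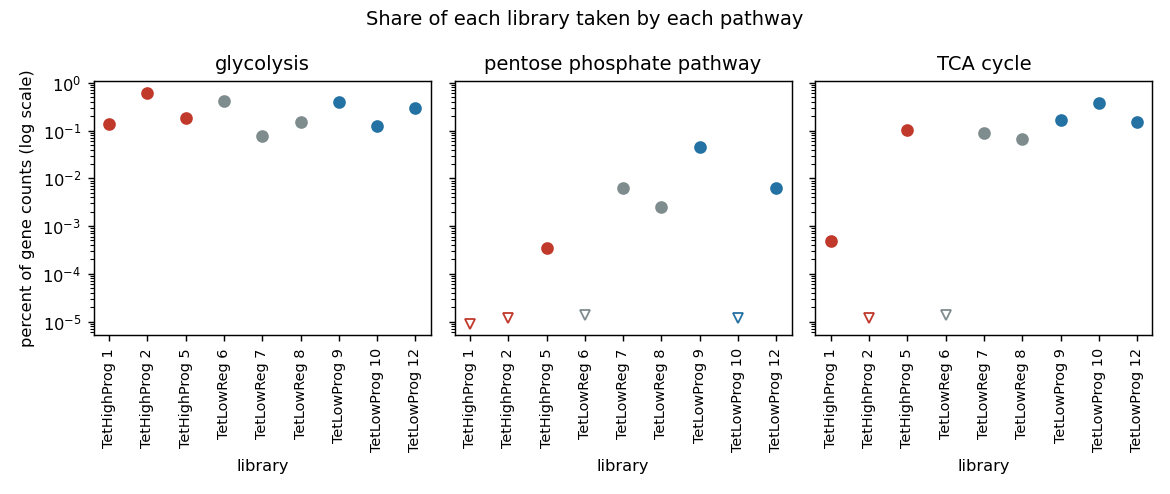
Percent of all gene counts (y axis, log scale) taken by glycolysis, the pentose phosphate pathway and the TCA cycle in each of the 9 libraries; open triangles mark libraries with fewer than 3 counts, drawn at the share of 3 counts. Glycolysis lies between 0.0787% and 0.625% in all 9 libraries, while the TCA cycle shares of the 3 TetLowProg libraries are the highest.

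Of the counts of glycolysis and the TCA cycle together, glycolysis made up 99.6%, 99.999% and 64.4% in TetHighProg, 100%, 47.5% and 69.5% in TetLowReg and 70.5%, 25.2% and 65.7% in TetLowProg. In the 5 libraries in which many genes were found the share lay between 47.5% and 70.5%, with TetHighProg 5 inside that range. The 4 sparse libraries lay outside it, 3 of them near 100% and TetLowProg 10 at 25.2%, where Idh3g and Mdh2 held nearly all TCA cycle counts. In each sparse library of TetHighProg and TetLowReg 1 gene, Aldoa or Ldha, made up 64.3% or more of the glycolysis counts, and in TetHighProg 5, which was not sparse, Aldoa made up 65.1%. Shares carry counting error of less than 1 percentage point (95% exact binomial interval), which leaves out amplification.

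The first comparison asked whether low avidity cells from regressing tumors differ from high avidity cells from progressing tumors, and no member was called by edgeR. Of the 42 genes 32 passed the filter on low counts, and by edgeR 0 of these 32 were called at adjusted p below 0.05 and a log2 fold change above 2, as were 0 of the 5813 genes tested (0%). At an unadjusted p under 0.05 stood 6 of 32 members (18.8%), namely Idh3g, Pfkl, Sucla2, Pgk1, Hif1a and Taldo1, beside 19.5% of all genes tested. The median log2 fold change of the tested members was 3.33, beside 3.52 over all genes, with 2.25 for glycolysis, 3.35 for the pentose phosphate pathway and 4.63 for the TCA cycle. Scaling by library size moved the median of all genes to 3.05 and that of the members to 3.10.

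Idh3g had the smallest p among the members, with a log2 fold change of 10.58 (SE 4.10), at least 1955-fold higher against a floor of 3 counts over the TetHighProg group (edgeR adjusted p = 0.233). The bound was at least 1122-fold without TetLowReg 8. Pfkl followed with 10.72 (SE 5.13) and Sucla2 with 10.60 (SE 5.09), at least 1857-fold and 2443-fold higher, and the edgeR adjusted p was 0.233 for both. Of the TetLowReg counts of Pfkl nearly all stood in library 8, and its bound was at least 61.3-fold without TetLowReg 8 and 3523-fold without TetLowReg 7. The bound of Sucla2 was at least 325-fold without TetLowReg 7. Hif1a had a log2 fold change of 8.92 (SE 4.50), at least 769-fold higher (edgeR adjusted p = 0.233; exact permutation p = 0.1, two-sided, the smallest that 3 against 3 libraries allow), and at least 74.8-fold without TetLowReg 7. Leaving out TetHighProg 1, which had 0 counts of these genes, lowered each of these bounds 1.70-fold through the smaller control total alone. Aldoa was 8.85-fold lower in TetLowReg by pooled counts, at 299 ± 268 against 2769.7 ± 3016.3 CPM (SD, n = 3 each, exact permutation p = 0.1), and edgeR gave a log2 fold change of -3.32 (SE 2.56, adjusted p = 0.401). Without TetHighProg 2 it was 3.36-fold lower. Members with non-overlapping libraries numbered 1 higher (Hif1a) and 1 lower (Aldoa) of 32, beside 4.8% and 0.998% of all genes. By other tools more were called, with 14 of 32 members against 41.5% of all genes by limma-voom and 7 of 25 members with an adjusted p against 34.8% by DESeq2, all higher in TetLowReg. With poscounts size factors DESeq2 called 4 of 20 members against 27.3% of all genes.

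The second comparison set low against high avidity cells of progressing tumors, using the same TetHighProg libraries as the first. By edgeR 0 of 32 members and 0 of 5813 genes (0%) were called. At an unadjusted p under 0.05 stood 10 of 32 members (31.2%), namely Idh3g, Pgd, Idh3b, Slc2a1, Idh3a, Cs, Taldo1, Dlat, Pgk1 and Hif1a, beside 25.4% of all genes. The median log2 fold change was 4.92 for the members and 4.27 for all genes, with 3.21 for glycolysis, 7.48 for the pentose phosphate pathway and 7.98 for the TCA cycle. Scaling by library size gave 5.47 and 4.56 for members and all genes.

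Idh3g was again first, with a log2 fold change of 13.16 (SE 4.68), at least 15756-fold higher in TetLowProg (edgeR adjusted p = 0.193, exact permutation p = 0.1), and at least 2909-fold without TetLowProg 10. Pgd had 7.48 (SE 3.60) and Idh3b 8.69 (SE 4.19), at least 581-fold and 1471-fold higher, each with an edgeR adjusted p of 0.193 and an exact permutation p of 0.1. Without TetLowProg 9 the bounds were at least 129-fold for Pgd and 46.0-fold for Idh3b, and without TetHighProg 1 all 3 bounds were 1.70-fold lower, again through the control total. Gpi1 was 24.5-fold higher by pooled counts, at 152 ± 127 against 5.49 ± 8.69 CPM (SD, n = 3 each), with an edgeR log2 fold change of 4.51 (SE 4.97, adjusted p = 0.621) and an exact permutation p of 0.1. It was 15.96-fold higher without TetLowProg 12 and 354-fold higher without TetHighProg 1, which held 518 Gpi1 counts. These 4 members were higher without overlap, beside 6.67% of all genes, and 0 were lower, beside 0.499%. Limma-voom called 19 of 32 members against 49.9% of all genes and DESeq2 11 of 25 against 42.9%, all higher in TetLowProg. With poscounts size factors DESeq2 called 4 of 20 members against 24.9%.

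The third comparison set the low avidity cells of progressing against those of regressing tumors. By edgeR 0 of 32 members and 0 of 5813 genes (0%) were called, and at an unadjusted p under 0.05 stood 0 members beside 0.929% of all genes. The median log2 fold change was 1.03 for the members and 0.35 for all genes, with 0.38 for glycolysis, 1.99 for the pentose phosphate pathway and 1.81 for the TCA cycle, and scaling by library size moved members and all genes to 2.13 and 1.23. Eno1 was 3.23-fold higher in TetLowProg by pooled counts, at 500.1 ± 224 against 119 ± 128 CPM (SD, n = 3 each, exact permutation p = 0.1), with an edgeR log2 fold change of 1.26 (SE 3.48, adjusted p = 0.99997). Without TetLowReg 7 it was 10.7-fold higher. Mdh2 was 5.04-fold higher, at 1053.3 ± 775 against 181 ± 157 CPM (SD, n = 3 each, exact permutation p = 0.1), with 1.91 (SE 3.11, edgeR adjusted p = 0.99997), and 3.29-fold higher without TetLowProg 10 or 8.19-fold without TetLowReg 7.

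The smallest p-values in this comparison belonged to Pgam1, with a log2 fold change of 8.24 (SE 5.46), Pdha1, with 6.09 (SE 5.22), and Idh3b, with 5.39 (SE 4.77), each with an edgeR adjusted p of 0.99997. In CPM, Eno1 and Mdh2 were the 2 tested members higher without overlap, beside 2.77% of all genes, and 0 were lower, beside 0.654%. TetLowReg 7 lay below TetLowProg 9, at 254 against 319 CPM for Eno1 and 268 against 312 for Mdh2. Without mitochondrially encoded genes the glycolysis share rose from 0.0787% to 0.142% in TetLowReg 7 and from 0.405% to 0.414% in TetLowProg 9. The same change of total would put both genes higher in TetLowReg 7 than in TetLowProg 9, so that their libraries would overlap. Overlap was not counted on that total. Limma-voom called 0 members and 0% of all genes, and DESeq2 called 0 of 24 members beside 1.88% of all genes. With poscounts size factors it called 1 of 23, Pdk1, beside 0.54% of all genes.

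**Figure D5:**
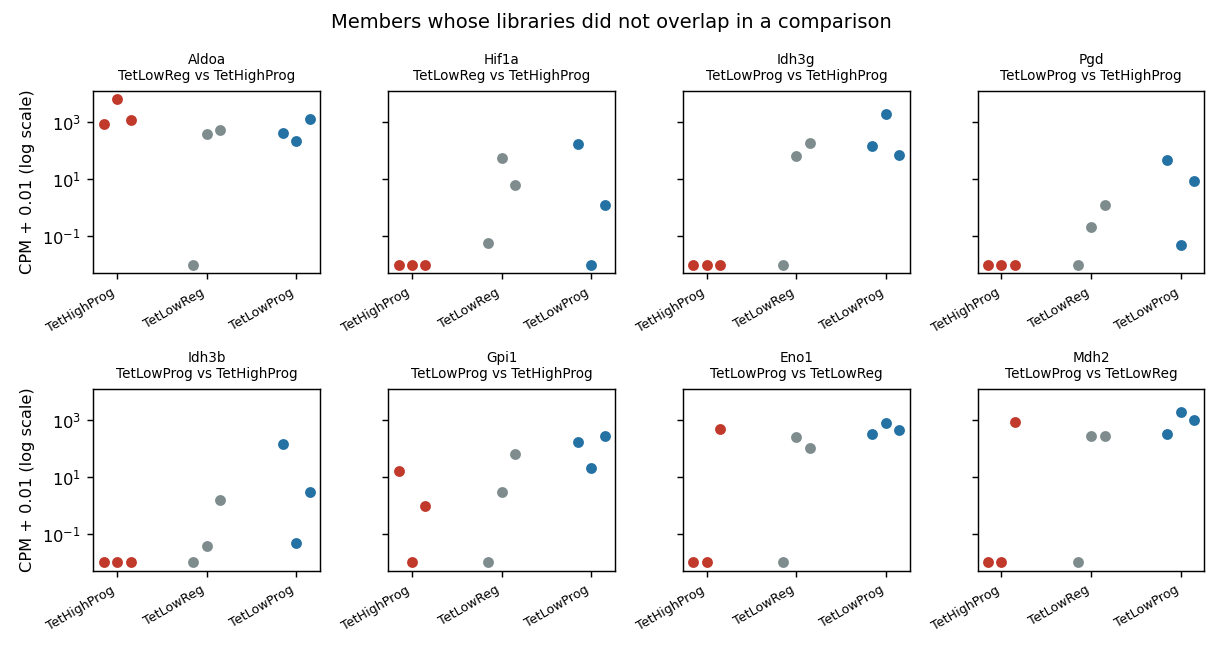
CPM plus 0.01 (y axis, log scale) of the 8 tested members whose libraries did not overlap in the comparison named above each panel, with 1 point per library and 3 libraries per group. Idh3g, Idh3b, Pgd and Hif1a have 0 counts in all 3 TetHighProg libraries, and Aldoa is higher in TetHighProg than in TetLowReg.

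The 10 members that did not pass the filter, Slc16a3, Pfkm, Aldoc, Tpi1, Eno3, Ldhb, Pdk1, G6pdx, Idh2 and Fh1, were found in 0 to 2 libraries each and are given no fitted value here, apart from the DESeq2 call of Pdk1. None of the 3 comparisons can give an exact permutation p below 0.1.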

How the data were processed

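The authors deposited raw read counts per gene for 9 bulk libraries, from paired-end reads aligned to mouse GRCm39 with STAR 2.7.6a per the labels. The methods name featureCounts for assigning reads, whereas the deposited tables have the layout of STAR gene counts, so which tool made them is not settled, and the annotation release is not given in the sources used here. Unstranded counts were used and 4 summary lines per library were left out. Identifiers were matched to GENCODE gene names for 28645 of 32976 genes. Libraries were tested with edgeR 4.0.16 (quasi-likelihood, TMM, default filter, prior count 2, Benjamini-Hochberg over 5813 genes), 3 groups in one model, since the 2 comparisons with TetHighProg share its libraries. DESeq2 1.42.0 and limma-voom 3.58.1 were alternatives, as were other filters, scalings and libraries left out. The fits were run on simulated data, but a pass was required only at a dispersion far below that of these data (common dispersion 8.12). How they perform at the spread seen here is therefore not shown. Counts were given for isozyme sets, regulated steps, members found in 5 or more libraries and members without overlap. Fold changes were given for tested members without overlap and the 3 smallest p per comparison. Near copies were sought with blastn 2.17.0 (95% identity over 100 bases). Some single-gene values of the added lists are not reported here. Members and lists were chosen with earlier results of these data known. Gene counts per library ranged from 16405306 to 36429515, and intervals and floors of 3 counts cover counting error only, since reads without molecular identifiers are not independent molecules.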

Additional observations from a re-analysis of the deposited data

How the results depend on the processing

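By edgeR 0 members were called in each comparison with no filter, a strict filter, library size scaling, the 2 groups alone, adjusted p alone, each library left out or the 4 sparse libraries left out. In TetLowReg against TetHighProg, DESeq2 called 7 with its default size factors and 4 with poscounts, and limma-voom called 14. In TetLowProg against TetHighProg these were 11, 4 and 19. In TetLowProg against TetLowReg poscounts called 1, Pdk1 (lower), which was at 0 in TetLowProg. The cause of the difference between tools was not tested. Of 181 recomputed values of printed fold changes 167 kept their side of the threshold, 14 passed it, all by DESeq2 or limma-voom, and 0 changed sign. The difference in members found between TetLowReg and TetHighProg was 11.3, and with 1 library left out 7.17 (without TetLowReg 7 or 8) to 19.7 (without TetLowReg 6). Between TetLowProg and TetHighProg it was 15, and 8.67 (without TetLowProg 9) to 23.7 (without TetLowProg 10). Between TetLowProg and TetLowReg it was 3.67 and changed sign, to -4.67 without TetLowReg 6, to -2.67 without TetLowProg 9 and to -1 at a minimum of 1 count, against 12.3 without TetLowProg 10, 7.83 without TetLowReg 7 or 8 and 1.33 without TetLowProg 12. Without mitochondrially encoded genes the glycolysis share of TetLowReg 7 moved from 0.0787% to 0.142% and its TCA cycle share from 0.0871% to 0.157%, still below the 0.163% of TetLowProg 12. Per kilobase of all annotated exons, chosen after seeing the data, Idh3b in place of Idh3g led its set in 1 of 5 libraries. Pooled folds with 1 library left out were chosen after seeing the data. No paired analysis was possible because the labels do not say which TetHighProg and TetLowProg libraries came from the same tumor, and the groups share no replicate numbers. Thinned to 16405306 counts, the differences were 12, 14.7 and 2.67 members, but thinning reads does not measure how many molecules a library held.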

Other observations

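Of each list of other pathway genes, those whose libraries did not overlap in a comparison and the 2 found in the most libraries (ties by mean CPM) are named, along with genes at 0 throughout. Among 22 other glycolysis genes 14 were found in some library, and Gpd2, the mitochondrial glycerol phosphate dehydrogenase, had 1, 0 and 0 counts in TetHighProg, 52140, 782 and 10 in TetLowReg and 3411, 0 and 1042 in TetLowProg. Gpd2 was higher in TetLowReg than in TetHighProg without overlap, and its highest count stood in the sparse TetLowReg 6. Tigar, a bisphosphatase, had 26 and 2015 counts in TetLowReg 7 and 8, 261 and 1715 in TetLowProg 9 and 12 and 0 in the other 5 libraries. Pklr, Ldhd, Gpd1 and Pgm2 had 0 counts in all 9 libraries.

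All 8 other pentose phosphate genes were found in some library. Rpia, ribose phosphate isomerase, had 1, 1 and 0 counts in TetHighProg, 1, 17 and 352 in TetLowReg and 405, 13 and 2 in TetLowProg, and was in CPM higher in both low avidity groups without overlap, though several of these libraries held 1 or 2 counts. Prps1, which makes phosphoribosyl pyrophosphate, had 0, 0 and 9732 counts in TetHighProg, 0, 7851 and 8770 in TetLowReg and 3593, 1 and 25364 in TetLowProg.

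Of 24 other TCA cycle and pyruvate genes 18 were found. Sdha, a subunit of succinate dehydrogenase, had 0, 0 and 0 counts in TetHighProg, 1157, 2416 and 543 in TetLowReg and 5479, 0 and 11302 in TetLowProg, higher in TetLowReg without overlap. Pdp2, the phosphatase that activates pyruvate dehydrogenase, had 37163, 0 and 65023 counts in TetHighProg, 0, 5098 and 13082 in TetLowReg and 2241, 0 and 30637 in TetLowProg, so that its highest counts stood in TetHighProg. Me2, a malic enzyme, had 2, 0 and 3256, then 0, 5756 and 2847, then 5063, 0 and 7584 counts. Pcx and Me1 had 0 counts throughout.

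Genes that did not overlap numbered 4.8% and 6.67% of all tested genes in the higher direction in TetLowReg and TetLowProg against TetHighProg. Of 17 genes of the HIF1 pathway and its targets 13 were found. Bnip3l, a mitophagy receptor, had 0, 0 and 0 counts in TetHighProg, 0, 2463 and 5 in TetLowReg and 6187, 1 and 3317 in TetLowProg, higher in TetLowProg than in TetHighProg without overlap, with 1 count in TetLowProg 10. Myc, a transcription factor, had 4267, 0 and 517 counts in TetHighProg, 0, 1142 and 1856 in TetLowReg and 17356, 0 and 2728 in TetLowProg. Mxi1, a transcriptional repressor, had 66, 0 and 0 counts in TetHighProg, 0, 285 and 3489 in TetLowReg and 265, 0 and 5799 in TetLowProg, and Epas1 had 0 in all 9 libraries. Chosen after their values were seen, Bnip3 had 4213 counts in TetHighProg 5, 379 in TetLowReg 7, 841 in TetLowProg 9 and 0 elsewhere, and Ankrd37 had 4028 in TetHighProg 5 and 0 elsewhere. By edgeR 0 genes of these 4 lists were called in any comparison. Of the 22 tested ones 9 (40.9%), 7 (31.8%) and 0 had an unadjusted p under 0.05 in the 3 comparisons in turn. The shares over all genes were 19.5%, 25.4% and 0.929%.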
